A study of Mus musculus with 21 samples.

Results

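Egr1, Fos, Fosl1, Jun, Junb, Ier2, Ier3, Atf3, Myc and Mycn encode immediate-early response factors and 2 Myc proteins, and their messenger RNA was followed here across 7 groups of cultured mouse embryonic stem cells. The 10 genes were chosen by name, found by the Ensembl ID of each symbol, and make up 10 of the 31053 gene IDs counted in every library. The cells were E14Tg2a, embryonic stem cells from a male mouse embryo of the 129 strain, engineered so that a destabilised green fluorescent protein reads out 1 Rex1 (Zfp42) allele. All libraries come from this single line. The study compared culture regimes for keeping such cells pluripotent, at zero passage and after 1 and 2 months.

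The 21 libraries form 7 groups of 3 replicates: 2i+LIF PO, 2i+LIF LP, CH+LIF LP, LIF LP, 2i+LIF HP, CH+LIF HP and LIF HP. LIF is a cytokine that acts through STAT3, CH is the GSK3 inhibitor CHIR99021, and PD is PD0325901, an inhibitor of the kinase MEK. The term 2i usually means CH and PD together. All groups share 1 growth protocol in the labels, a first week in NDiff227 medium with both inhibitors and then passages with CH, PD and LIF added or withdrawn. What each library's medium held at harvest is given only by its group name. Only 2i+LIF has a PO group, taken here as the zero-passage sample, while the labels assign neither LP nor HP a length of culture. The replicates carry numbers, but nothing says that they were separate cultures, so p-values measure the spread between these libraries, which may be technical.

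Immediate-early genes are transcribed within minutes of a stimulus, without new protein synthesis, and their transcripts and proteins are short-lived. Growth factor signals reach many of them through RAS, RAF, MEK and ERK, which phosphorylate ternary complex factors bound beside SRF at serum response elements. In mouse embryonic stem cells, FGF4 made by the cells themselves keeps ERK active and primes them for differentiation, and MEK inhibition in 2i medium blocks that signal. Myc and Mycn bind DNA as partners of MAX and act on growth and metabolism genes. Myc is a known target of LIF and STAT3 in these cells.

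Depth limits what can be said of these genes, since gene counts per library ran from 1132126 to 3783043 with a median of 1763531. Levels are given as CPM, the counts of a gene relative to its library's total after TMM scaling, and a gene is called where edgeR's quasi-likelihood test gave an adjusted p under 0.05 over all 10643 genes tested. Replicate 1 of 2i+LIF LP stood apart, with 31.7% of its counts in the single gene Gm42418 and a mean correlation of 0.754 with the other replicates, as did replicate 1 of 2i+LIF PO, with 39.1% mitochondrial counts and a mean correlation of 0.809. The file names of the 3 PO libraries carry a different number from those of the 18 LP and HP libraries. The labels do not say what this number stands for. It may mark a batch, which cannot be told apart from PO. All 9 embryonic stem cell markers had counts in every group, with summed levels of 1330 to 3870 CPM per library. Fibroblast feeder markers summed to 3.83 to 38 CPM, primitive endoderm markers to 0.481 to 22.3 CPM and trophoblast markers to 0 to 22.3 CPM, while 4 neural markers summed to 13.2 to 231 CPM. In bulk RNA, fewer cells of a type and less RNA per cell cannot be told apart.

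Among the 10 genes, 8 passed the filter on low counts. Fosl1 had 2 counts in all libraries together and Myc had 52, so neither was tested. Per kilobase of exon, the mean level over all libraries was highest for Ier2 at 33.6 CPM per kb, followed by Ier3 at 18.6, Junb at 10.2, Mycn at 7.5, Atf3 at 3.7, Egr1 at 3.5, Jun at 3.46, Fos at 2.33 and Myc at 0.52. That order pools groups that differ: Egr1 means ran from 0.0759 CPM per kb in PO to 8.42 in LIF LP, and Atf3 means from 0.64 in PO to 7.23 in LIF HP. A test for any difference among the 7 groups called 5 of the 8, namely Egr1, Fos, Atf3, Ier3 and Mycn, in a fit that called 22.6% of all genes. Without PO, among the 6 LP and HP groups, it called Egr1, Fos and Ier3, where 13.1% of all genes were called. The 2i+LIF HP group had the lowest mean for 4 of the 8 (Fos, Junb, Ier3 and Mycn) and the highest for Jun. Its replicate 3, the library with the fewest gene counts, was its lowest for Junb, Ier3 and Mycn and its highest for Jun. That library had 1 read each of Junb and Mycn. Its other Mycn libraries had 11.6 and 21.8 CPM, beside a mean of 16.1 CPM in CH+LIF HP, so the lowest rank for Mycn rests on replicate 3. CH+LIF LP had the highest mean for Junb, Ier2 and Ier3, and LIF LP for Egr1 and Fos. Without its replicate 1, which stood apart, 2i+LIF LP had the highest mean for Junb, 40 CPM, and for Ier2, 70.5 CPM.

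**Figure D1:**
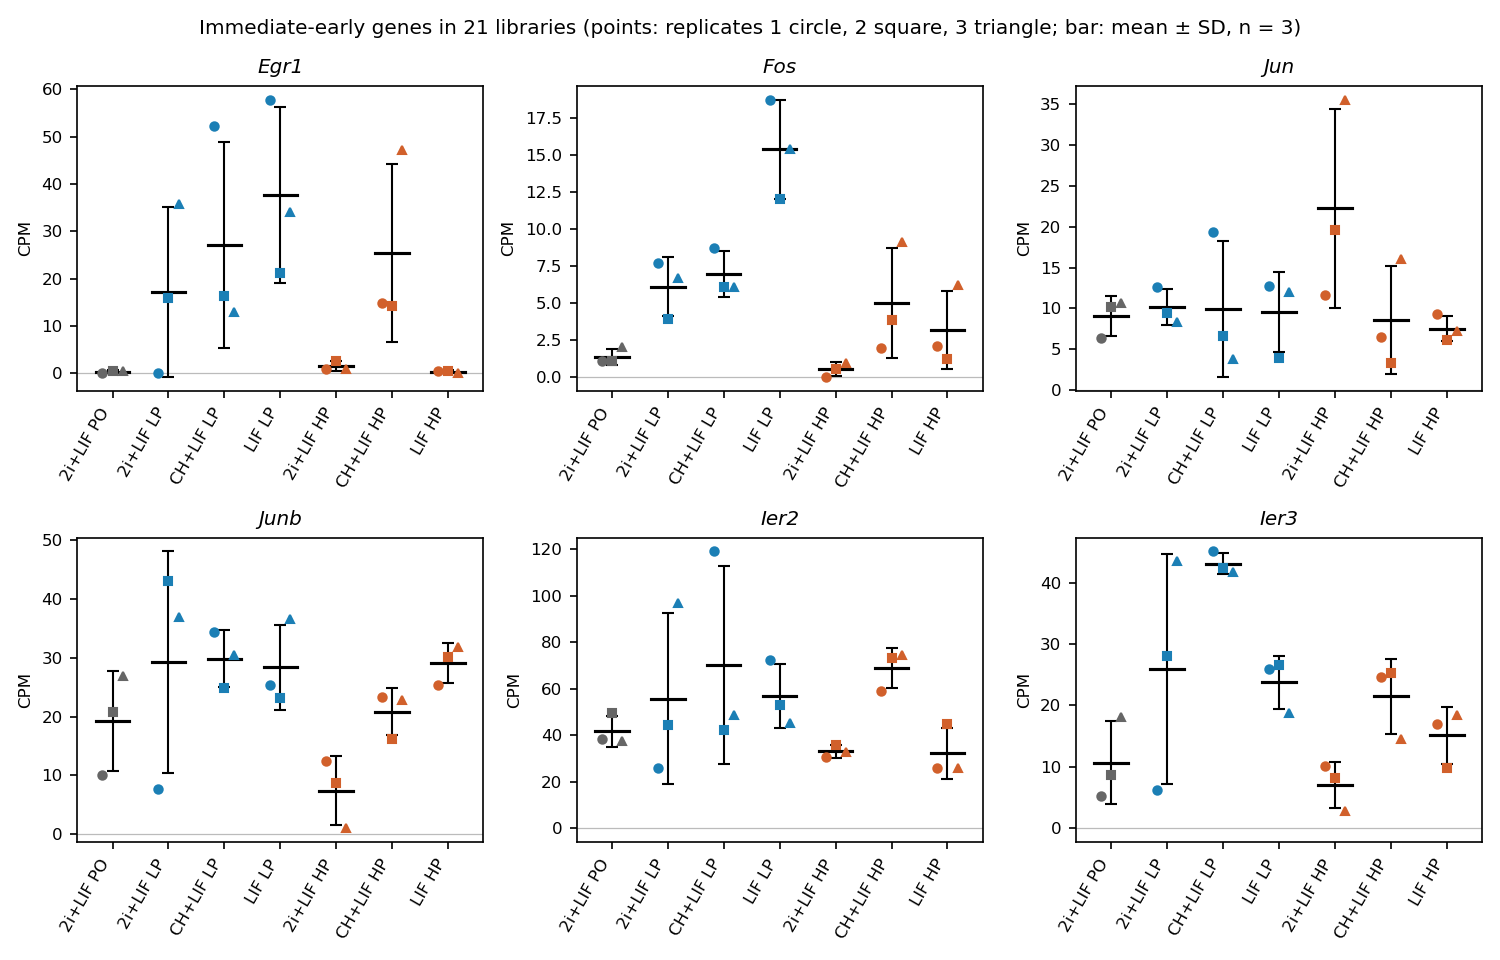
CPM of Egr1, Fos, Jun, Junb, Ier2 and Ier3 on the vertical axis in the 7 groups on the horizontal axis; points are single libraries (circle, square and triangle for replicates 1, 2 and 3), and bars are the mean ± SD, n = 3. Egr1 sits at or below 2.73 CPM in every 2i+LIF PO, 2i+LIF HP and LIF HP library, and at 12.9 to 57.8 CPM in every other library except replicate 1 of 2i+LIF LP, which has no count.

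Egr1 (ENSMUSG00000038418, GRCm38 chromosome 18, 34859823 to 34864984, plus strand) encodes a zinc finger transcription factor that is a standard readout of ERK activity. Its levels fell into a low and a high range. In 2i+LIF PO the 3 libraries had 0, 0.523 and 0.499 CPM. LIF HP libraries had 0.515, 0.616 and 0 CPM, and those of 2i+LIF HP 0.929, 2.73 and 0.958 CPM. PO, LIF HP and 2i+LIF HP thus rest on 4, 2 and 8 reads in all. In LIF LP the libraries had 57.8, 21.2 and 34.1 CPM, in CH+LIF LP 52.3, 16.3 and 12.9 CPM, and in CH+LIF HP 14.9, 14.3 and 47.2 CPM. The 2i+LIF LP libraries were split, at 0, 15.9 and 35.8 CPM, and the one without a count is replicate 1, the library that stood apart. Its mean of 17.2 ± 17.9 CPM (SD, n = 3) became 25.9 CPM over the other 2 libraries. In order of means, LIF LP, CH+LIF LP, CH+LIF HP and 2i+LIF LP overlapped from each to the next, 2i+LIF LP and 2i+LIF HP overlapped through replicate 1 of 2i+LIF LP, 2i+LIF HP lay above every LIF HP library, and LIF HP overlapped with PO. The whole pattern passed the test among 7 groups (edgeR adjusted p = 4.72e-05) and among the 6 LP and HP groups (adjusted p = 0.000871), as in all 28 alternatives of each test.

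From LP to HP, Egr1 fell in LIF and in 2i+LIF, while in CH+LIF its mean was 27.2 ± 21.8 CPM at LP and 25.5 ± 18.8 CPM at HP (SD, n = 3). In LIF the pooled reads were 2 at HP against 208 at LP, an 87.3-fold lower level on TMM-scaled totals with a 95% counting interval of 23.9 to 726, and the groups did not overlap. The fitted log2 change was -6.24 ± 1.14 (SE, edgeR adjusted p = 0.00135), a value that depends on the prior count because LIF HP holds so few reads; the call stood in all 29 alternatives. In 2i+LIF the fitted change was -3.41 ± 0.95 (adjusted p = 0.0401), with overlap through the LP library without a count. That call was lost without replicate 2 or 3 of 2i+LIF LP or without any 1 of the 3 2i+LIF HP libraries, with adjusted p from 0.0634 to 0.172, and with counts thinned to 1132126 per library (adjusted p = 0.059). In CH+LIF the change was -0.13 on the log2 scale and did not pass.

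Among the HP groups, the media differed in Egr1. CH+LIF HP was higher than 2i+LIF HP by 3.94 ± 0.95 on the log2 scale (SE, edgeR adjusted p = 0.0231), a 15.3-fold difference without overlap. LIF HP was lower than CH+LIF HP, with 2 against 115 pooled reads, a ratio of 52.7 with a counting interval of 14.3 to 440 and an adjusted p of 0.0127. LIF HP and 2i+LIF HP, both low, did not pass, at 2 against 8 reads (ratio 3.61, counting interval 0.72 to 34.9). The call of CH+LIF HP over 2i+LIF HP was lost without any 1 of the 2i+LIF HP libraries or without replicate 3 of CH+LIF HP, with adjusted p from 0.0678 to 0.155. That of LIF HP under CH+LIF HP was lost without any 1 LIF HP library or without the same CH+LIF HP replicate, with adjusted p from 0.0579 to 0.0877. Among the LP groups, no pair of media was called for Egr1.

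The fall of Egr1 from LP to HP in LIF was also tested against the change in CH+LIF. This interaction of medium with HP against LP was -6.11 ± 1.39 on the log2 scale (SE, edgeR adjusted p = 0.0459), in a test that called 0.423% of all genes, and Egr1 was the only one of the 8 called. It held in 12 of 28 alternatives and was lost in the other 16, with the same sign in each. The interactions of CH+LIF against 2i+LIF and of LIF against 2i+LIF called none of the 8, with 2 and 1 of them at an unadjusted p under 0.05, and called 0.0188% and 0.15% of all genes. DESeq2 also called none of the 8 in these last 2 tests. With genes of low count kept, edgeR called Egr1 in that of CH+LIF against 2i+LIF (adjusted p = 0.0375). With both libraries that stood apart left out it again called Egr1 there (0.0497), and Junb in that of LIF against 2i+LIF (0.0387). The share of all genes called was 0.254% with genes of low count kept. With both libraries left out it was 0.356% and 1.52% in these 2 interactions.

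Some markers of cell state also changed from LP to HP. Utf1, a chromatin factor of pluripotent cells, fell from LP to HP in 2i+LIF and in LIF, with log2 changes of -4.53 ± 0.75 and -4.55 ± 0.74 (SE, edgeR adjusted p = 0.000721 and 0.000433), to means of 3.01 ± 2.17 and 3.63 ± 2.91 CPM, while CH+LIF HP had 82 ± 11 CPM (SD, n = 3). It was the 1 of the 9 embryonic stem cell markers that edgeR called in these contrasts (3.67% and 9.96% of all genes), where DESeq2 called 2 and 4. The 9 did not share one direction in LIF, where their median was 0.27 and 6 had an unadjusted p under 0.05. Dppa5a differed by 2.26 ± 0.77, Tfcp2l1 by 1.23 ± 0.44 and Nanog by 0.96 ± 0.37 on the log2 scale (SE) without a call, while Sox2 and Zfp42 had negative log2 changes, also without a call. Sox1, a marker of neural progenitors, fell as well, with log2 changes of -4.05 ± 1.02 in 2i+LIF (edgeR adjusted p = 0.022) and -2.82 ± 0.73 in LIF (adjusted p = 0.0154), each call lost without any 1 of 4 single libraries (adjusted p up to 0.0911). The 4 neural markers had a median summed level of 64.9 CPM in 2i+LIF HP against 136 CPM at LP, with overlap, and summed to 85.6 to 132 CPM in LIF HP against 178 to 192 CPM at LP. In CH+LIF, where Egr1 was not called, the same sum was 45.4 to 54.8 CPM at HP against 118 to 131 CPM at LP, also without overlap, and none of the 3 tested neural markers was called by edgeR or DESeq2, with 1 at an unadjusted p under 0.05. Most of the neural sum was 1 gene, Tubb3. Its means were 104 ± 17 CPM in CH+LIF LP and 41.4 ± 1.62 CPM in CH+LIF HP (SD, n = 3). In LIF they were 132 ± 13 CPM at LP and 93.5 ± 23.5 CPM at HP.

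Trophoblast markers summed to 7.67 to 22.3 CPM in 2i+LIF HP and to at most 4.21 CPM in any library of the other groups. Nearly all of this was Cdx2, a trophectoderm factor that also marks posterior embryo cells, with 12.6 ± 7.73 CPM (SD, n = 3), while Elf5, Gcm1 and Tpbpa had no read there. The Cdx2 rise from 2i+LIF LP was called by edgeR (adjusted p = 0.0333) but not by DESeq2, and lost without any 1 of 7 single libraries (adjusted p up to 0.108). Primitive endoderm markers, none of which passed the filter on low counts, summed to 3.25 to 22.3 CPM in 2i+LIF HP and to at most 6.71 CPM in any library of the other groups. The part of these markers in the Egr1 and Fos results was not tested.

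Fos and Fosl1 encode partners of the JUN proteins in the dimeric factor AP-1. Fos (ENSMUSG00000021250, GRCm38 chromosome 12, 85473890 to 85477273, plus strand) reached 18.7, 12 and 15.4 CPM in LIF LP, above every library of the other groups. CH+LIF LP libraries had 8.72, 6.05 and 6.08 CPM, and 2i+LIF LP libraries 7.71, 3.88 and 6.71 CPM. In 2i+LIF HP, Fos had 0, 0.545 and 0.958 CPM from 2 reads in all. LIF HP had 2.06, 1.23 and 6.18 CPM, CH+LIF HP 1.95, 3.82 and 9.14 CPM, and PO 1.06, 1.05 and 1.99 CPM. In order of means, LIF LP did not overlap with CH+LIF LP, the next 5 groups (CH+LIF LP, 2i+LIF LP, CH+LIF HP, LIF HP and PO) overlapped from each to the next, and PO did not overlap with 2i+LIF HP, the lowest. The difference among the 7 groups passed (edgeR adjusted p = 0.00122), as did that among the 6 LP and HP groups (adjusted p = 0.00459).

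From LP to HP, Fos fell in 2i+LIF and in LIF. In 2i+LIF the pooled reads were 2 against 32, a 14.5-fold lower level with a counting interval of 3.71 to 125 (edgeR adjusted p = 0.0222), without overlap. In LIF it fell by 2.39 ± 0.71 on the log2 scale (SE, adjusted p = 0.0314), a 5.23-fold difference without overlap. The 2i+LIF call was lost without replicate 1 or 2 of 2i+LIF HP (adjusted p = 0.0877 and 0.0952), and the LIF call without any 1 LIF LP library or replicate 1 or 2 of LIF HP (adjusted p from 0.0608 to 0.161). The Fos libraries of 2i+LIF HP hold 0 or 1 read each and those of LIF HP 2 to 6, and with thinned counts the adjusted p rose to 0.0857 in 2i+LIF and 0.0832 in LIF. In CH+LIF the change was -0.52 ± 0.67 and did not pass. At HP, CH+LIF was above 2i+LIF by 3.36 ± 0.95 without overlap, with an adjusted p of 0.066 that became 0.0478 without replicate 1 of 2i+LIF LP. Fosl1 (ENSMUSG00000024912, chromosome 19, 5447547 to 5455946, plus strand), which overlaps Ccdc85b on the other strand, had 1 read in each of 2 CH+LIF HP libraries and none elsewhere.

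Jun and Junb, which pair with FOS proteins or with each other, did not pass the test among 7 groups. Jun (ENSMUSG00000052684, chromosome 4, 95049034 to 95052222, minus strand; the Junos transcript overlaps it on the plus strand) had 11.6, 19.6 and 35.5 CPM in 2i+LIF HP. Elsewhere the group means lay between 7.55 ± 1.59 CPM (LIF HP) and 10.2 ± 2.2 CPM (2i+LIF LP; SD, n = 3). So 2i+LIF HP, the group lowest in Fos, had the highest mean of Jun, but its adjusted p was 0.316 among 7 groups and 0.331 among 6, with no call in any of 28 alternatives of either test.

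Junb (ENSMUSG00000052837, chromosome 8, 84974484 to 84978718, minus strand; Prdx2 overlaps it on the plus strand) had 12.5, 8.72 and 0.958 CPM in 2i+LIF HP. The 2i+LIF LP libraries had 7.71, 43.1 and 36.9 CPM, LIF HP 25.3, 30.2 and 31.9 CPM, and CH+LIF HP 23.4, 16.2 and 22.8 CPM. The 2i+LIF HP values lay below every library of CH+LIF LP, LIF LP, CH+LIF HP and LIF HP, and overlapped with 2i+LIF LP only through its replicate 1 of 7.71 CPM. With all libraries, edgeR called no Junb contrast, and its test among 6 groups gave an adjusted p of 0.115. DESeq2, and edgeR with genes of low count kept, called Junb from 2i+LIF LP to HP (DESeq2 adjusted p = 0.0193), in LIF HP against 2i+LIF HP (0.0187), and among both the 6 and the 7 groups. Without that replicate, Junb fell from 2i+LIF LP to 2i+LIF HP by 2.29 on the log2 scale (edgeR adjusted p = 0.00537), LIF HP exceeded 2i+LIF HP by 1.82 (adjusted p = 0.017), and the test among 6 groups gave 0.0182. The same replicate was the lowest of its group for Egr1, Junb, Ier2 and Ier3 and the highest for Fos, Jun and Mycn.

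Ier2 and Ier3 are short immediate-early genes; IER3 is an inhibitor of apoptosis that also prolongs ERK signalling. Ier2 (ENSMUSG00000053560, chromosome 8, 84661331 to 84662852, minus strand) was present throughout, from 25.8 to 119 CPM. LIF HP had the lowest mean, 32.2 ± 11.1 CPM, beside 33.1 ± 2.69 CPM for 2i+LIF HP, and CH+LIF HP with 68.9 ± 8.57 CPM and CH+LIF LP with 69.9 ± 42.4 CPM (SD, n = 3) had the highest, or 2i+LIF LP with 70.5 CPM when its replicate 1 was left out. The CH+LIF HP libraries, at 59, 73 and 74.6 CPM, lay above all 6 libraries of LIF HP and 2i+LIF HP, but no Ier2 contrast was called and the test among 7 groups gave an adjusted p of 0.139. Without replicate 1 of 2i+LIF LP that adjusted p was 0.0451.

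Ier3 (ENSMUSG00000003541, chromosome 17, 35821684 to 35822923, plus strand) was highest in CH+LIF LP, whose libraries agreed closely at 45.1, 42.4 and 41.8 CPM. It was lowest in 2i+LIF HP, at 10.2, 8.18 and 2.88 CPM. The 2i+LIF LP libraries had 6.31, 28 and 43.6 CPM, with replicate 1 again the lowest. LIF LP had 25.9, 26.6 and 18.8 CPM, CH+LIF HP 24.7, 25.3 and 14.5 CPM, LIF HP 17, 9.85 and 18.5 CPM, and PO 5.28, 8.63 and 18.2 CPM. Each group overlapped with the next in order of means. Ier3 passed among 7 groups (edgeR adjusted p = 0.0129) and among 6 (adjusted p = 0.0312). The second call was lost without any 1 CH+LIF LP library, replicate 2 or 3 of 2i+LIF HP or replicate 2 of LIF HP, with an adjusted p of up to 0.0845. Without replicate 1 of 2i+LIF LP, Ier3 fell from 2i+LIF LP to 2i+LIF HP by 2.22 on the log2 scale (adjusted p = 0.00643) and exceeded PO in 2i+LIF LP by 1.70 (adjusted p = 0.0261), neither of which edgeR called with all libraries. DESeq2, and edgeR with genes of low count kept, called the first of them with all libraries.

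Atf3, which encodes a stress-induced factor of the ATF/CREB family, moved the other way. Atf3 (ENSMUSG00000026628, chromosome 1, 191170296 to 191218039, minus strand) had 1.58, 1.31 and 1.25 CPM in 2i+LIF PO, below every other library except replicate 3 of LIF LP. LP libraries had 4.21, 6.89 and 3.91 CPM in 2i+LIF, 1.94, 6.05 and 6.83 CPM in CH+LIF, and 2.2, 5.98 and 1.44 CPM in LIF. HP libraries had 4.65, 9.81 and 24.9 CPM in 2i+LIF, 9.08, 14.8 and 13.7 CPM in CH+LIF, and 10.3, 24 and 12.4 CPM in LIF. The HP means of 13.1 ± 10.5, 12.5 ± 3.03 and 15.6 ± 7.39 CPM (SD, n = 3) were all above the LP means of 5 ± 1.64, 4.94 ± 2.63 and 3.21 ± 2.43 CPM, and only the 2i+LIF HP libraries overlapped with LP of the same medium. In LIF, Atf3 rose from LP to HP by 2.31 ± 0.67 on the log2 scale (SE, edgeR adjusted p = 0.0289), a 4.96-fold difference. In CH+LIF and 2i+LIF the differences of 1.37 ± 0.65 and 1.30 ± 0.64 were not called, and no interaction of medium was called for Atf3. The LIF call was lost without replicate 1 or 3 of LIF LP or replicate 2 or 3 of LIF HP, with adjusted p from 0.0629 to 0.179. Atf3 passed among 7 groups (adjusted p = 0.00371), and missed the threshold among the 6 LP and HP groups at 0.0521, with a call in 8 of 28 alternatives.

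Heat shock genes and library measures are given beside this rise, since Atf3 is known to respond to stress. Of 5 heat shock genes tested, edgeR called 0 from LIF LP to LIF HP, with 1 at an unadjusted p under 0.05 and 0 by DESeq2 (median 0.74 on the log2 scale, against 0.008 for all genes; 9.96% of all genes called). All 7 heat shock genes listed summed to 3210 to 4040 CPM in LIF LP libraries against 5570 to 6610 CPM at HP. Most of this sum was 1 gene, Hsp90aa1, with 2980 ± 278 CPM in LIF LP and 5000 ± 445 CPM in LIF HP (SD, n = 3). Means of Hspa8 (26.8 and 52.8 CPM) and Dnajb1 (117 and 195 CPM) were also higher at HP. That of Hsph1 was lower (50.3 and 40 CPM). The mitochondrial share of gene counts was 2.739 to 8.014% in LIF LP against 3.481 to 9.348% at HP. The share of reads not uniquely placed was 23.1 to 25.6% in LIF LP and 30.3 to 35.4% in LIF HP, and that of reads outside genes 17 to 24.6% and 8.46 to 16.7%, both without overlap, so these shares move with every LP to HP result in LIF, the falls of Egr1 and Fos included. In CH+LIF HP the 2 shares were 25.6 to 28.3% and 16.715 to 22.937%. LIF HP, with at most 16.689% outside genes, did not overlap with it in either share, and Egr1 was also called between these groups. Gadd45b, another stress-responsive gene, had 9.89 ± 0.743 CPM in LIF LP and 32.1 ± 10.5 CPM in LIF HP (SD, n = 3) without a call. The part of these measures in the results for LIF was not tested.

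The promoters of Fos and Atf3 are shown because these 2 genes were called from LIF LP to LIF HP in opposite directions, and both hold the core of the cyclic AMP response element, the site of CREB and ATF factors. Each line gives the bases before the RefSeq start site (GRCm38.p6), 5′ to 3′ on the gene's strand, for chr12:85473640-85473889 (plus) and chr1:191183334-191183583 (minus). Capitals mark the motif matches.
Fos: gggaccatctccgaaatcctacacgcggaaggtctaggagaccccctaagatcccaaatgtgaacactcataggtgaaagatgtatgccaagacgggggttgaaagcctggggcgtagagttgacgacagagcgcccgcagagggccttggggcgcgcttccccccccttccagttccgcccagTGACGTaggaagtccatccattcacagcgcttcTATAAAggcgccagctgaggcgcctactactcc
Atf3: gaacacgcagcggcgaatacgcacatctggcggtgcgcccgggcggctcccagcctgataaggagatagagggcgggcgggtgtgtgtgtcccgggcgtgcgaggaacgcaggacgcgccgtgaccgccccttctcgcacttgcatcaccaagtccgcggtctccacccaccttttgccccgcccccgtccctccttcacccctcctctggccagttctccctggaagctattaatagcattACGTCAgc

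In Fos the response element core TGACGT began at position -66 and a TATAAA box at -33, counted from the start site. In Atf3 the core lay on the other strand, as ACGTCA, beginning at -8; this RefSeq start lies inside the longer GENCODE gene span. Promoter windows of 6 of the 10 genes were in the RefSeq table (Atf3, Fos, Ier3, Jun, Junb and Mycn). The core was found on either strand in 2 of the 6 and in 6.47% of 32851 mouse promoter windows of the same length, and TATAAA in 1 of the 6 and 12.4% of windows. None of these 6 windows held the full element TGACGTCA (1.55% of windows), which contains the core, or the AP-1 site TGANTCA (6.75%), the EGR site GCGNGGGCG (4.7%), the E-box CACGTG bound by MYC and MAX (6.02%) or the CArG box (1.47%). Each window holds the 250 bases before the start site, so sites farther upstream were not searched. Other variants of the motifs were not searched either. Egr1, Fosl1, Ier2 and Myc had no window. A motif without a match here, the CArG box included, may thus still lie elsewhere at these genes. These matches describe the letters of these windows only.

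**Figure D2:**
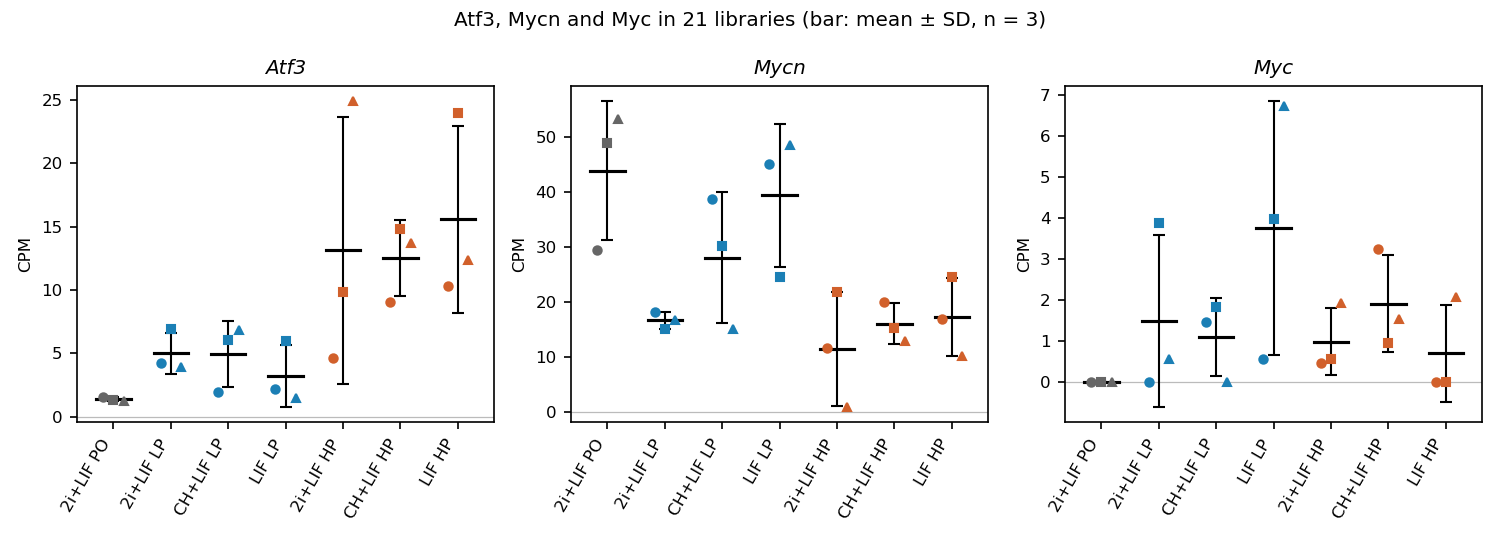
CPM of Atf3, Mycn and Myc on the vertical axis in the 7 groups on the horizontal axis, with single libraries as points (circle, square and triangle for replicates 1, 2 and 3) and the mean ± SD, n = 3, as bars. Atf3 is lowest in 2i+LIF PO, at 1.25 to 1.58 CPM, where Mycn has its highest mean, 43.9 CPM, and Myc has no count.

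Mycn was the more abundant of the 2 Myc genes. Mycn (ENSMUSG00000037169, chromosome 12, 12936093 to 12941914, minus strand) had 29.5, 48.9 and 53.3 CPM in PO and 45.2, 24.6 and 48.6 CPM in LIF LP. CH+LIF LP had 38.8, 30.3 and 15.2 CPM, and 2i+LIF LP 18.2, 15.1 and 16.8 CPM. At HP the libraries had 11.6, 21.8 and 0.958 CPM in 2i+LIF, 20.1, 15.3 and 12.9 CPM in CH+LIF, and 17, 24.6 and 10.3 CPM in LIF. All 9 HP libraries thus lay below the 3 PO libraries, and each group overlapped with the next in order of means. Mycn passed among 7 groups (edgeR adjusted p = 0.0302), but this was lost without replicate 2 or 3 of PO, replicate 1 or 3 of LIF LP or replicate 1 of 2i+LIF HP (adjusted p up to 0.0729), and among the 6 LP and HP groups it did not pass (adjusted p = 0.112).

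Myc (ENSMUSG00000022346, chromosome 15, 61985391 to 61990374, plus strand) had 52 reads in 14 of the 21 libraries. No read fell in the 3 PO libraries, which are the deepest. LIF LP had 0.551, 3.98 and 6.73 CPM, the highest mean at 3.76 ± 3.1 CPM (SD, n = 3), and the other 5 groups had means of 0.687 to 1.91 CPM. Pooled, LIF LP had 21 reads and was at least 12.6-fold higher than PO, taking 3 reads over the PO group as its floor. Of the 21 reads, 14 are in replicate 3, and the bound was 6.84-fold without it, and 7.66- and 7.41-fold without replicate 2 or 3 of PO. Elsewhere CH+LIF HP had 9 reads, 2i+LIF LP 10 (9 of them in replicate 2), CH+LIF LP 6 and 2i+LIF HP 4. LIF HP had 2 reads, both in replicate 3, and was 8.82-fold lower than LIF LP, with a counting interval of 2.16 to 77.6. Counting intervals and floors cover counting error only. When genes with low counts were kept in the fit, LIF LP against PO was called for Myc (edgeR adjusted p = 0.0104), while LIF HP against LIF LP was not (adjusted p = 0.345).

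Read contrast by contrast, the 8 tested genes were called 18 times in 120 tests of 15 pairs of groups, and Egr1 took 8 of these calls. Of the 18 calls, 11 were against PO. The shares of all genes called in the 15 contrasts ran from 0.0% to 12.3%, the highest in LIF HP against PO. Between media at LP none was called: the shares of all genes called were 0.0% for CH+LIF against 2i+LIF, 0.489% for LIF against 2i+LIF and 0.047% for LIF against CH+LIF. By unadjusted p under 0.05, edgeR gave 0, 2 and 0 of the 8 in these 3 contrasts, and DESeq2 called none. Between media at HP, Egr1 was called in CH+LIF against 2i+LIF (2.02% of all genes) and in LIF against CH+LIF (1.47%), and no member in LIF against 2i+LIF (3.78%), where 3 of the 8 had an unadjusted p under 0.05 and DESeq2 called Junb. From LP to HP, Egr1 and Fos were called in 2i+LIF (3.67%), and Egr1, Fos and Atf3 in LIF (9.96%). CH+LIF called none of the 8 from LP to HP with edgeR or DESeq2, with 1 of them at an unadjusted p under 0.05, where only 0.0094% of all genes were called.

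**Figure D3:**
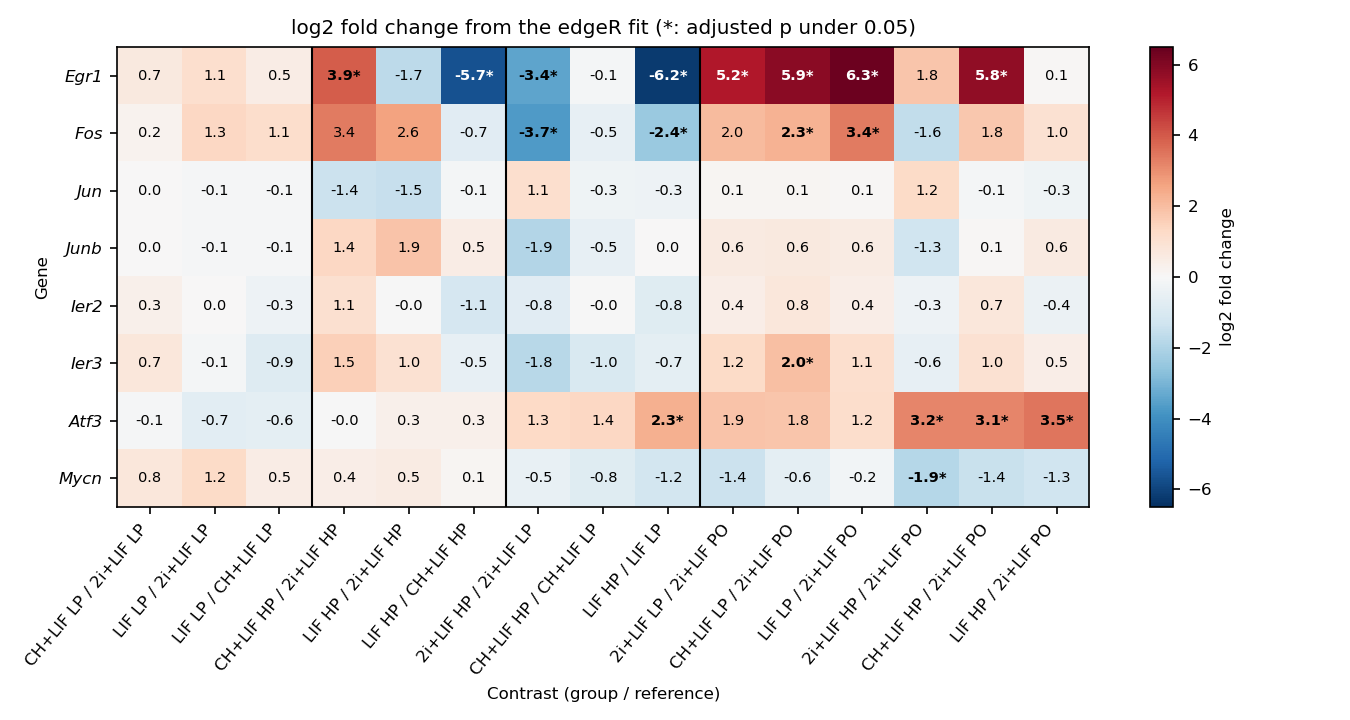
Log2 fold changes from the edgeR fit for the 8 tested genes (rows) in the 15 contrasts (columns, group against reference), as colour and number, with a star where the adjusted p was under 0.05. Egr1 ranges from -6.24 in LIF HP against LIF LP to 6.35 in LIF LP against PO, and the 3 contrasts of LP media at the left hold no star.

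Against PO the calls came in both directions, and all 6 contrasts share the PO libraries, whose file names carry their own number. Markers of cell state moved in the same contrasts, and their part in these results was not tested. Of the 9 embryonic stem cell markers, edgeR called lower 3 in 2i+LIF LP, 5 in CH+LIF LP, 5 in LIF LP, 6 in 2i+LIF HP, 1 in CH+LIF HP and 3 in LIF HP, where it also called 1 higher. Of the 3 tested neural markers, it called higher 2 in 2i+LIF LP, 3 in LIF LP and 1 in 2i+LIF HP. With single libraries left out, the stem cell marker calls in either direction numbered as few as 0 in CH+LIF HP, 1 in each LP group, 2 in LIF HP and 3 in 2i+LIF HP. The neural marker calls ran from 0 to 2 in 2i+LIF LP and in 2i+LIF HP, and from 0 to 3 in CH+LIF LP. They ran from 2 to 3 in LIF LP, and from 0 to 1 in CH+LIF HP and in LIF HP. Egr1 was higher than PO in 2i+LIF LP (5.23 ± 1.03 on the log2 scale, SE), CH+LIF LP (5.89 ± 1.02), LIF LP (6.35 ± 1.02) and CH+LIF HP (5.76 ± 1.03), with edgeR adjusted p between 0.000281 and 0.00509 and a call in every alternative. Egr1 was not called in 2i+LIF HP (1.82 ± 1.29) or LIF HP, where 2 reads stood against 4. Fos was higher in LIF LP (3.40 ± 0.70, adjusted p = 0.00246), in every alternative, and in CH+LIF LP (2.27 ± 0.71, adjusted p = 0.0455), a call lost in 17 of 29 alternatives, among them the omission of 13 single libraries (adjusted p from 0.0517 to 0.149). Ier3 was higher in CH+LIF LP by 1.97 ± 0.52 (adjusted p = 0.0193), lost without replicate 1 or 2 of either group (adjusted p from 0.0528 to 0.0662).

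Atf3 was higher than PO in all 3 HP groups, by 3.16 ± 0.70 in 2i+LIF, 3.15 ± 0.69 in CH+LIF and 3.47 ± 0.70 in LIF on the log2 scale (SE, edgeR adjusted p = 0.00477, 0.00891 and 0.00278), or 8.93-, 8.89- and 11-fold. The 2i+LIF call was lost without replicate 3 of 2i+LIF HP (adjusted p = 0.0684), the library of 24.9 CPM, and the CH+LIF call with thinned counts (adjusted p = 0.0598). Mycn was lower than PO in 2i+LIF HP by 3.65-fold (log2 change -1.87 ± 0.52, adjusted p = 0.0221), lost without replicate 2 or 3 of PO or replicate 1 or 3 of 2i+LIF HP (adjusted p from 0.0504 to 0.105), and in a fit of the 2 groups alone (adjusted p = 0.137). Its differences of -1.45 ± 0.51 in CH+LIF HP and -1.32 ± 0.51 in LIF HP were not called by edgeR. DESeq2 called the first of them, and edgeR with genes of low count kept, or without both libraries that stood apart, called both. The shares of all genes called against PO were 5.06% in 2i+LIF LP, 8.31% in CH+LIF LP, 12.0% in LIF LP, 10.6% in 2i+LIF HP, 5.82% in CH+LIF HP and 12.3% in LIF HP.

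The genes that feed into and follow ERK were counted in the same tests, from lists chosen with earlier results of these data known. Of 21 genes of the cascade and of the factors at serum response elements, edgeR called 0 among the 6 LP and HP groups (13.1% of all genes), with 3 at an unadjusted p under 0.05 and 2 by DESeq2. Of 9 tested ERK feedback and late target genes, 5 passed among the 6 groups, namely Dusp6, Etv4, Phlda1, Spry2 and Spry4. From LP to HP in LIF, 7 of the 9 fell and none rose (4 fell without replicate 2 or without replicate 3 of LIF HP), with a median of -2.20 on the log2 scale, against 0.008 for all genes and 9.96% called. Etv4, an ETS factor that ERK signals induce, went from 106 ± 16.2 CPM in LIF LP to 10.9 ± 5 CPM in LIF HP (SD, n = 3; log2 change -3.22 ± 0.40, edgeR adjusted p = 1.3e-05). Spry4, an inhibitor of receptor tyrosine kinase signalling, had 48 reads in LIF LP and none in LIF HP. From LP to HP in CH+LIF, edgeR and DESeq2 each called 0 of the 9, with 0 at an unadjusted p under 0.05 (0.0094% of all genes called), and Etv4 was at 101 ± 3.99 CPM in CH+LIF HP. In 2i+LIF, 3 of the 9 fell from LP to HP, Dusp6, Etv4 and Spry4, and none rose, with a median of -0.23 against 0.007 for all genes and 3.67% called. The Etv4 call stood without any 1 library, the Dusp6 call was lost without replicate 2 or 3 of 2i+LIF LP or any 1 of 2i+LIF HP (edgeR adjusted p from 0.0739 to 0.161), and the Spry4 call without replicate 2 of 2i+LIF LP or replicate 1 or 3 of 2i+LIF HP (0.0674 to 0.104). Phlda1, a pleckstrin homology domain protein, had its highest mean in 2i+LIF HP, 95 ± 80.9 CPM.

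Other immediate-early genes did not share one direction. Of 26 listed, 18 were tested and 3 passed among the 6 LP and HP groups, Ccn2, Rhob and Sgk1, beside 13.1% of all genes. With both libraries that stood apart left out, 7 passed, beside 24.5% of all genes. Egr2, a relative of Egr1, had no read in any library. From LP to HP in LIF, where 9.96% of all genes were called, 1 of the 18 was called, Sgk1, a kinase induced by serum and glucocorticoids, which rose by 1.27 ± 0.37 on the log2 scale (SE, edgeR adjusted p = 0.0308), from 56.5 ± 6.05 to 136 ± 70 CPM (SD, n = 3). Rhob, which encodes a small GTPase, was higher in LIF HP than in CH+LIF HP by 1.98 ± 0.45 (adjusted p = 0.0228), where Egr1 was lower. Ccn2, a YAP target and matricellular protein, rose from LP to HP in 2i+LIF by 3.95 ± 1.03 (adjusted p = 0.0276), where Egr1 and Fos were lower, although its HP libraries spread from 4.79 to 105 CPM. The Sgk1 call was lost without any 1 LIF LP library or replicate 2 or 3 of LIF HP (adjusted p from 0.0561 to 0.297), the Rhob call without any 1 library of either group (0.0566 to 0.128), and the Ccn2 call without any 1 of 2i+LIF LP or replicate 2 of 2i+LIF HP (0.0604 to 0.739). The median log2 change of the 18 was 0.21 from LP to HP in LIF and -0.03 in 2i+LIF.

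Around Myc, 1 of 12 partners and antagonists passed among the 6 LP and HP groups, Mnt, a repressor that competes for MAX (edgeR adjusted p = 0.0157), beside 13.1% of all genes. DESeq2 called 4 of the 12, and 18.1% of all genes. Its mean was highest in 2i+LIF LP and lowest in LIF HP, 39.1 ± 7.85 CPM (SD, n = 3), and the call was lost without replicate 1 of 2i+LIF LP (adjusted p = 0.119). Max, the obligate partner of MYC and MYCN, had 124 ± 40.8 CPM in PO and was called lower in 5 of the 6 contrasts against it, by 1.84 to 2.40 on the log2 scale, with LIF HP at 70.8 ± 4.11 CPM the exception. Of these calls, CH+LIF LP was lost without its replicate 1 (adjusted p = 0.0694) and LIF LP without its own (0.0669). Among the 16 Myc target genes edgeR called 0 among the 6 groups, with 2 at an unadjusted p under 0.05 and 3 by DESeq2, and 2, Ldha and Nme1, among the 7, beside 13.1% and 22.6% of all genes. In 2i+LIF HP against PO, where Mycn was called lower, edgeR and DESeq2 each called 0 of the 16, with 1 at an unadjusted p under 0.05 (10.6% of all genes called by edgeR; median 0.11 on the log2 scale, against -0.088 for all genes).

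The genes whose pattern over the 21 libraries was most like each member were taken by the root mean square distance of log2 CPM, centred on each gene's mean, among 10516 genes. This measure describes likeness in these libraries, which share depth and composition. For Egr1 they were Slc7a7, an amino acid transporter subunit, at 0.65, Tgm3, a transglutaminase, at 0.67, and Dusp6, the cytoplasmic phosphatase of ERK, at 0.87, beside 2.13 for Egr1's own spread. Dusp6 had means of 2.85 ± 0.753 CPM in PO, 0.411 ± 0.711 CPM for LIF HP and 3.37 ± 1.36 CPM for 2i+LIF HP, against 20.5 ± 17.6 to 38 ± 4.22 CPM in the other 4 groups (SD, n = 3). In replicate 1 of 2i+LIF LP, without an Egr1 read, Dusp6 had 0.701 CPM, Slc7a7 1.4 CPM and Tgm3 4.21 CPM.

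**Figure D4:**
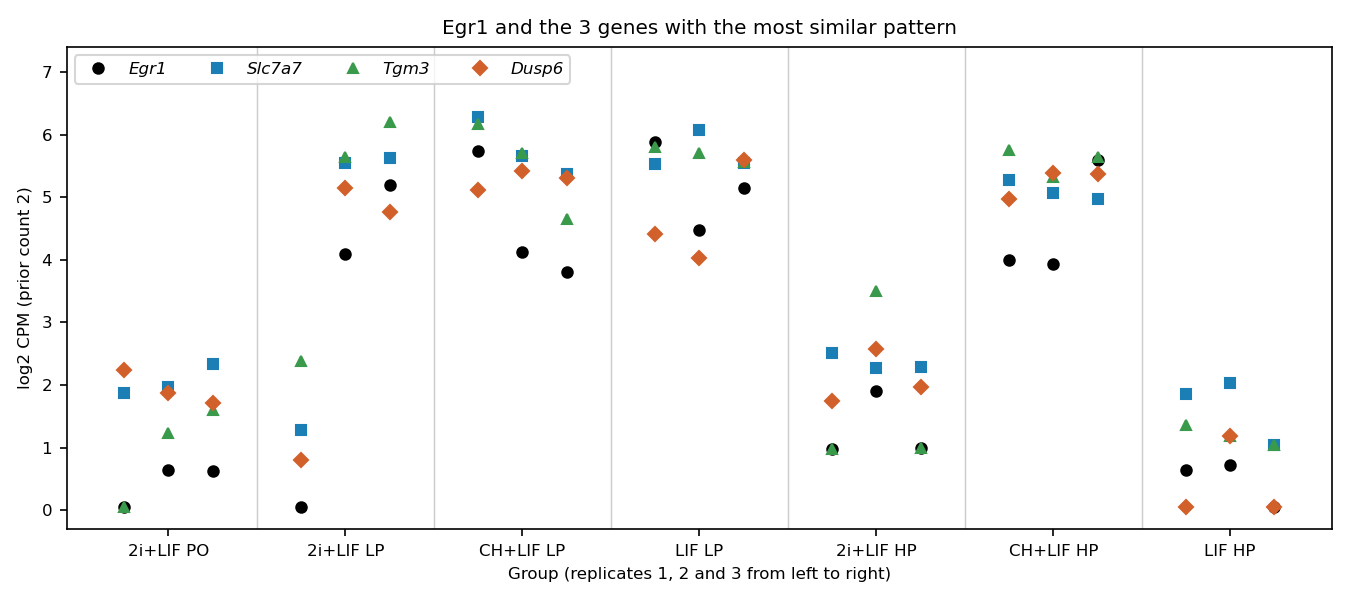
Log2 CPM (prior count of 2) of Egr1, Slc7a7, Tgm3 and Dusp6 on the vertical axis in the 21 libraries, by group on the horizontal axis, replicates 1 to 3 from left to right. Egr1 is at most 1.91 in 2i+LIF PO, 2i+LIF HP, LIF HP and replicate 1 of 2i+LIF LP and at least 3.8 in the other libraries; Tgm3 reaches 3.51 in replicate 2 of 2i+LIF HP.

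The nearest genes of the other members lay closer to the members' own spread. Arhgap29 was nearest to Fos, at 0.54 beside 1.16, with a mean of 53.3 CPM in LIF LP against 8.61 CPM for 2i+LIF HP, followed by Zfp945 and Fam217b. For Ier3 the nearest was Slco4a1, at 0.45 beside 0.98, with its highest mean of 11.6 CPM in CH+LIF LP, then Smpdl3b and Slc30a3. Emp1 led for Mycn (0.45 beside 1.01), then Ubqln2 and Thoc6, and Mylpf for Atf3 (0.57 beside 1.07), then Rpl14 and Reep5. Desi1 led for Jun (0.45 beside 0.73), then Utp14b and Amph, Pipox for Junb (0.47 beside 0.99), then Rnf141 and Atl2, and Slc25a13 for Ier2 (0.34 beside 0.59), then Zfp729b and Fbxo5.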

How the data were processed

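mRNA was sequenced in 21 libraries of E14Tg2a cells from 125 ng of total RNA each. The authors deposited raw counts (whole numbers) for each Ensembl gene ID; the submitters' processing notes name bcl2fastq, STAR 2.6.0a, HTSeq and the mm10 build. Annotation, strand setting and filters are not given in the sources used here, so genes that overlap on either strand (Fosl1, Jun and Junb) may share or lose reads. Gene counts made up 47.4 to 62% of each library's entries; reads outside genes (8.46 to 25.8%), those not uniquely placed (20.8 to 35.4%) and the remaining summary entries of each file were left out of all totals and tests. GENCODE M21 (GRCm38) gave symbols and positions, matching 31011 of 31053 IDs. Every pair of replicates differed by more than counting noise (lowest chi-square per degree of freedom 5.21).

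All 21 libraries entered 1 edgeR 4.0.16 quasi-likelihood fit in R 4.3.3 (TMM scaling, filterByExpr, a coefficient per group, 14 residual degrees of freedom), with two-sided tests and Benjamini-Hochberg adjustment over 10643 genes within each test, threshold 0.05. Standard errors are the absolute log2 fold change divided by the square root of F, with a prior count of 2 in log2 CPM values. Ratios of pooled reads use TMM-scaled library sizes. The number in the file names could not be fitted as a term, since it separates the same libraries as PO. The 10 genes and all lists were chosen with earlier results of these data known. Named were the 10 genes, up to 4 genes per list with the lowest p among the 6 LP and HP groups, and, for each tested member with a mean of at least 5 CPM in a group, the 3 genes of most similar pattern; other list genes (Egr2, Spry2, Nme1, Sox2, Zfp42) were named after their values were seen. Alternatives were DESeq2 1.42.0, edgeR with DESeq2's size factors, all genes kept whatever their counts, each library thinned to 1132126 counts, removal of mitochondrial genes and Gm42418, fits on the compared groups alone, a block for the replicate number, and each replicate left out; leaving out both libraries that stood apart together, replicates outside a contrast, or single libraries from the Myc bound, and the use of unscaled totals for pooled ratios, were chosen after seeing the data. The steps were tested on simulated data.

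In 1 of 15 contrasts (PO with 2i+LIF LP) every correlation of same-numbered deviations was over 0.1, at 0.397, 0.345 and 0.179. The highest joins the 2 libraries that stood apart. Differently numbered libraries were not compared, so this does not show that the numbers pair the libraries.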

Additional observations from a re-analysis of the deposited data

Results flagged for a closer look

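For Egr1, the change from LP to HP differed between LIF and CH+LIF: the difference of the 2 log2 changes was -6.11, and the interaction test itself passed (edgeR adjusted p = 0.0459, range over alternatives 6.17e-07 to 0.165). In LIF all 3 HP libraries were below all 3 LP libraries, while in CH+LIF the HP and LP libraries overlapped. The LIF HP group holds 2 Egr1 reads in all, and the call was lost without any 1 library of LIF LP, CH+LIF HP or LIF HP.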

How the results depend on the processing

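No called change reversed its direction under any alternative run, and changes that were not called were not followed. The group with the highest mean of Junb and Ier2 changed without replicate 1 of 2i+LIF LP. That with the lowest mean of Mycn changed without replicate 3 of 2i+LIF HP. With unscaled gene totals the pooled ratio of Egr1 in LIF, LP over HP, was 120 in place of 87.3, and the Myc bound of LIF LP over PO 15 in place of 12.6. The 5 members called among 7 groups ran from 4 to 7 over the alternatives, with 7 without replicate 1 of 2i+LIF LP, alone or with that of PO. The shares of all genes called in these 2 settings were 28.1% and 35.7%, against 22.6% in the main fit. The 11 calls against PO ran from 8 to 15, with 15 without both libraries that stood apart. Without these libraries the shares of all genes called against PO were 9.89% to 20.8%, against 5.06% to 12.3% in the main fit. The 0 calls between media at LP stayed 0 in each. For the 6 LP and HP groups, 3 members became 6 with DESeq2, 6 with no filter on low counts and 7 with both libraries that stood apart left out. The share of all genes called in this test was 13.1% in the main fit, and 18.1%, 12.8% and 24.5% in these settings, in that order. The 2 calls between media at HP became 5 with both libraries left out and 4 with only the groups compared, and ran from 0 to 4 with single libraries left out; the 5 calls from LP to HP became 2 with thinned counts and ran from 3 to 7. At HP with both libraries left out, the shares of all genes called were 4.95% (CH+LIF against 2i+LIF), 13.0% (LIF against 2i+LIF) and 6.92% (LIF against CH+LIF). In the main fit they were 2.02%, 3.78% and 1.47%. The 1 interaction call became 2 with no filter (both Egr1), 0 with thinned counts and 3 with both libraries left out (Egr1 in 2 interactions, Junb in 1), and ran from 0 to 1 with single libraries left out. In the interaction of LIF against CH+LIF, the share of all genes called was 0.423% in the main fit. It was 0.903% with no filter and 3.18% with both libraries left out. With the replicate number as a block the interaction call became 0 (Egr1, -5.92, adjusted p = 0.0563), and the block also called Atf3 among the 6 groups (adjusted p = 0.0314), giving 4 beside 15.5% of all genes. The block changed no other call of a member. In all, 476 of 547 called log2 fold changes stayed called across alternatives and 71 missed the threshold with the same sign; of 140 mean CPM values with another scaling, 138 moved by less than 1 SD. Where a cause is not plain from fewer libraries or reads, it was not tested. Depth limits Fos, Myc, Atf3 and the low groups of Egr1, which rest on a few reads per library.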
